A study of Mus musculus with 6 samples.

Results

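The genes described here are 10 components of bone morphogenetic protein (BMP) and activin signalling: the ligand genes Bmp2, Bmp4, Bmp6, Bmp7 and Inhba, the receptor genes Bmpr1a, Bmpr2 and Acvrl1, the intracellular inhibitor Smad6 and the secreted antagonist Grem1. They were taken by symbol from the gene count matrix, in which all 10 are present among 47643 genes. RNA was sequenced from the entire aorta of Apoe-/- mice, which lack apolipoprotein E and are prone to raised plasma cholesterol and atherosclerosis. The EPO group (3 libraries) was injected intraperitoneally with recombinant human erythropoietin, the hormone of red cell production, at 5000 IU per kg per day, which the series calls the medium dose. The Vehicle group (3 libraries) was injected by the same route with saline. Both groups carry the Apoe deletion and were treated for 4 weeks, and the sources used here give neither the age and sex of the animals nor whether each library came from 1 animal. The p-values therefore measure only the spread between these libraries, which may be technical.

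BMPs and activins are secreted dimers of the TGF-beta superfamily. A ligand brings together type II receptors, such as the product of Bmpr2, with type I receptors, such as ALK3 (Bmpr1a) and the endothelial receptor ALK1 (Acvrl1). BMP type I receptors phosphorylate SMAD1, SMAD5 and SMAD9, which enter the nucleus with SMAD4 and switch on genes such as the Id family and Smad6, while activin receptors act through SMAD2 and SMAD3. SMAD6 restrains the pathway from inside the cell, and gremlin, noggin and chordin bind the ligands outside it. In arteries the pathway is known from endothelial growth and quiescence, the smooth muscle phenotype and vascular calcification.

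Depth ran from 23278649 to 38502430 counts per library, so that a gene with 0 counts could lie at up to 0.0779 to 0.129 CPM (counts scaled to normalised library size) by counting error alone. Apoe, the gene targeted in both groups, still gave 176 to 516 counts in Vehicle and 335 to 1385 in EPO, and with no wild-type aorta among the samples this does not test the deletion. The EPO receptor gene Epor stood at 2.14 to 3.23 CPM in Vehicle and 2.14 to 6.39 CPM in EPO (log2 fold change 0.58, adjusted p = 0.346), and the mouse Epo gene had 3 counts in Vehicle and 1 in EPO. The labels name no batch.

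Markers of the cell types that an aorta sample can hold were summed as a share of all counts in each library. All 7 smooth muscle markers (Myocd, Cnn1, Myh11 and others) were detected in every library. They took 1.95% to 2.76% of the counts in Vehicle and 0.666% to 0.934% in EPO, and 7 of 7 were lower. In bulk tissue, fewer cells of a type and less RNA per cell cannot be told apart, for these markers or for the genes below. Fibroblast markers took 0.884% to 1.16% in Vehicle and 4.11% to 5.72% in EPO (3 of 7 higher: Col1a1, Col3a1 and Lum). Most of this share in EPO came from the 2 collagen genes. Pdgfra, Dpt, Dcn and Pi16 were not called (log2 fold changes 0.4, 0.47, -0.13 and -0.28), so the share does not measure fibroblast content. Endothelial markers took 0.122% to 0.140% and 0.0920% to 0.122% (3 of 7 higher, Robo4, Cdh5 and Kdr, and 1 lower, Pecam1). Macrophage markers took 0.147% to 0.319% and 0.338% to 0.646%, highest in EPO 1 (1 of 7 higher, Adgre1). Chondrocyte markers took 0.0112% to 0.0223% and 0.0745% to 0.0928% (4 of 6 tested higher, Col11a1, Acan, Comp and Sox9, and 1 lower, Hapln1; Matn1 was at 0 in EPO 3). Skeletal muscle markers took 0.000518% to 0.00112% and 0.0263% to 0.261%, highest in EPO 2 (6 of 6 tested higher; Myog was at 0 in the 3 Vehicle libraries and EPO 3). White adipocyte markers took 0.287% to 0.680% and 0.187% to 0.237% (4 of 7 lower, Retn, Plin1, Adipoq and Cidec) and brown adipocyte markers 0.0462% to 0.152% and 0.0276% to 0.0625% (1 of 4 lower, Cidea). Red cell, Schwann cell and mesothelial markers took 0.0458% to 0.154%, 0.00436% to 0.00956% and 0.000379% to 0.00296% over the 6 libraries, with none of 6, 5 and 4 called by edgeR (with an unadjusted p under 0.05 in 0, 2 and 1 of them). The part of any of these in the results below was not tested.

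Of the 10 genes, 4 were lower with EPO (Bmp4, Bmp6, Bmpr1a and Smad6), 1 was higher (Grem1) and 5 did not pass the test (Bmp2, Bmp7, Bmpr2, Acvrl1 and Inhba). All 10 passed the filter on low counts. A gene was called when edgeR's quasi-likelihood test gave a Benjamini-Hochberg adjusted p below 0.05 over all 16522 genes tested. Across all tested genes 23.0% were called, 12.9% higher and 10.1% lower. The 4 lower genes of 10 thus stand above the background share of lower calls, and the 1 higher gene is near that of higher calls. The 10 genes were chosen with earlier results of these data known, so these shares only describe the list. Their median log2 fold change was -0.27, and that of all tested genes 0.01. In 5 of the 10 genes every EPO library lay below every Vehicle library and in 0 every EPO library lay above, where 21.0% and 22.9% of all tested genes separated that way, 43.8% in all. Without Vehicle 3 or without EPO 2 the number of lower genes was 2. Over all tested genes, lower calls were 1245 and 941 in those fits, against 1671 in the main comparison. Beside the 4 falls, the smooth muscle, white adipocyte and Schwann cell marker shares were also lower in every EPO library. Among the EPO libraries, EPO 1 had the lowest smooth muscle share (0.666%), the highest values of Bmp4, Bmp6 and Smad6 and the lowest of Bmpr1a. The part of these shares in the falls was not tested. The higher call, that of Grem1, was lost without any one of Vehicle 1, Vehicle 2, Vehicle 3, EPO 1 and EPO 2.

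**Figure D1:**
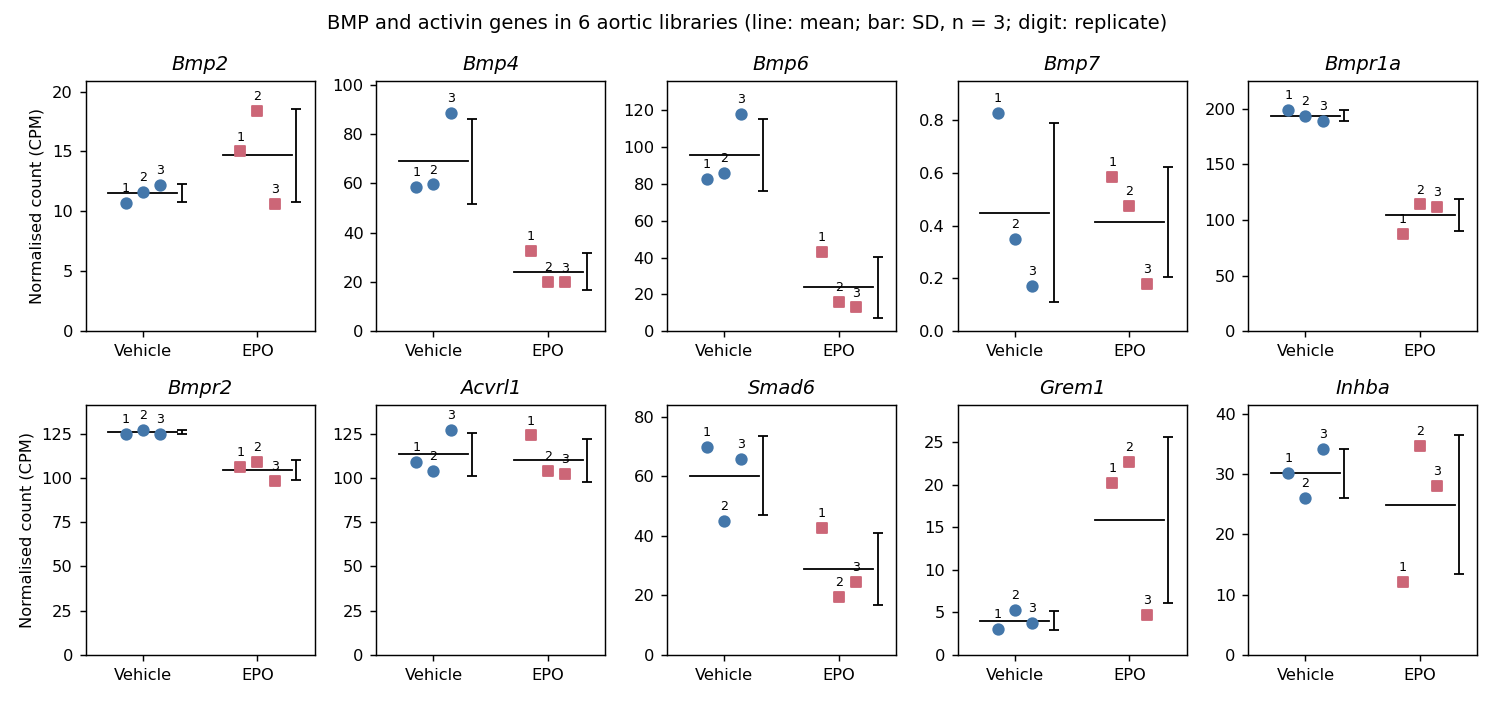
Normalised count (CPM, linear axes from 0) of the 10 genes in the 3 Vehicle libraries (circles) and 3 EPO libraries (squares), with the group mean (line), SD (bar) and replicate number. Bmp4, Bmp6, Bmpr1a, Bmpr2 and Smad6 separate without overlap, and Grem1 is high in EPO 1 and EPO 2 but not in EPO 3.

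Promoter sequences are shown for 4 of the called genes, because BMP-activated SMADs are known to bind GC-rich elements and Smad6 is a known target of BMP signalling. RefSeq windows (GRCm38.p6, from 250 bases before to 50 after the transcription start, read along the gene's strand) were matched for 7 of the 10 genes: Bmp4, Bmp6, Bmpr1a, Bmpr2, Smad6, Grem1 and Inhba. Capitals mark matches to the GC-type motifs GGCGCC (its own reverse complement) and GGAGCC, which on the other strand reads GGCTCC. They also mark the palindrome GTCTAGAC, a known SMAD-binding element that is not of the GC type. The windows are chr9:64022010-64022309 for Smad6, chr14:46390620-46390919 for Bmp4, chr14:34502497-34502796 for Bmpr1a and chr2:113758599-113758898 for Grem1, all on the minus strand.
Smad6: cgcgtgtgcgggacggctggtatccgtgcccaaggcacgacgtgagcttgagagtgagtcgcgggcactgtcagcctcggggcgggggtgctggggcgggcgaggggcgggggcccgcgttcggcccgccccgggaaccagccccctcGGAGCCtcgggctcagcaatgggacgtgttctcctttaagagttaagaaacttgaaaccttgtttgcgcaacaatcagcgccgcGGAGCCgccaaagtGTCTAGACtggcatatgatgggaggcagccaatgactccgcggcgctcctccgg
Bmp4: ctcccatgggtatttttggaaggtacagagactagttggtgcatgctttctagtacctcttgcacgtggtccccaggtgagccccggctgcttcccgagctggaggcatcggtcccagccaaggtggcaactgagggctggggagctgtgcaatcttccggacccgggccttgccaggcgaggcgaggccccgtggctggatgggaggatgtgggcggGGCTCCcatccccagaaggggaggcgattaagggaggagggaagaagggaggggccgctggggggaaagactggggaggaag
Bmpr1a: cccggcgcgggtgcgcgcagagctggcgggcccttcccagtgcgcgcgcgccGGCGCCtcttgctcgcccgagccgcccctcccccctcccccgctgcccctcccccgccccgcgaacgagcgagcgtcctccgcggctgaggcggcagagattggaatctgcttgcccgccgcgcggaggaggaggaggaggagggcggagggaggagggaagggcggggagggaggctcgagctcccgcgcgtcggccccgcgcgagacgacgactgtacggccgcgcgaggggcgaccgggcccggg
Grem1: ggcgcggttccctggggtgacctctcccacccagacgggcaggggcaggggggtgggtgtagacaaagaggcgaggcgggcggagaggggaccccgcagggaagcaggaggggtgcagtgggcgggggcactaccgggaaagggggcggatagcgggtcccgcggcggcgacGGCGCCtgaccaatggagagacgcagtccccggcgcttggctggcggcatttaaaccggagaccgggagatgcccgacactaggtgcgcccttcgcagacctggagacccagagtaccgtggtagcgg

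The Smad6 window holds GGAGCC at 102 and at 18 bases before the start, and GTCTAGAC from 4 bases before it, across the start site. GTCTAGAC occurs in 0.213% of all 32851 RefSeq windows of this length, GGCGCC in 11.9% and GGAGCC in 30.8%. GGCGCC is in 3 of the 7 windows (Bmpr1a, Bmpr2 and Grem1) and GGAGCC in 3 (Bmp4, Smad6 and Inhba), on either strand, and the Bmp6 window holds none of the 3 motifs. The G and C content of the 7 windows ran from 47.7% (Inhba) to 79.3% (Bmpr1a), against a median of 52.7% over all windows. Matches occur in genes that fell and in Grem1, which rose, and a match shows only that these letters are present.

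Bmp4 encodes a ligand made by endothelium and by mesenchymal cells. In Vehicle 1, 2 and 3 it stood at 58.4, 59.6 and 88.7 CPM, and in EPO 1, 2 and 3 at 32.7, 20.0 and 19.8 CPM. The highest EPO library was thus below the lowest Vehicle library. The mean went from 68.9 ± 17.1 to 24.2 ± 7.36 CPM (SD, n = 3), a 2.85-fold fall (log2 fold change -1.51, SE 0.25, adjusted p = 0.00719). The call held without any single library, with the log2 fold change between -1.80 and -1.29. Bmp4 lies on GRCm38 chromosome 14 from 46383520 to 46390669 on the minus strand (ENSMUSG00000021835). The gene model Gm15217 on the other strand covers 3.96% of its exon bases, and since the strand setting of the counting is not known, reads from Bmp4 and Gm15217 cannot be told apart there.

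Bmp6 encodes a ligand that endothelial cells secrete and that, in the liver, raises hepcidin in response to iron. It had 82.7, 86.0 and 118 CPM in Vehicle 1, 2 and 3 and 42.9, 15.7 and 12.9 CPM in EPO 1, 2 and 3. All EPO values were below all Vehicle values, and EPO 1 lay between the other EPO libraries and Vehicle. From 95.6 ± 19.5 to 23.8 ± 16.6 CPM this was a 4.01-fold fall, the greatest fall among the 10 genes (log2 fold change -2.0, SE 0.45, adjusted p = 0.0186). Without EPO 1 the log2 fold change was -2.75, a change of over 1.5 times in fold, and the call was lost narrowly without Vehicle 3 (adjusted p = 0.0508) or without EPO 2 (adjusted p = 0.0559). Bmp6 lies on chromosome 13 from 38345107 to 38500302, plus strand (ENSMUSG00000039004), and shares 5.74% of its exon bases with Txndc5 on the opposite strand.

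Bmp2, which is closely related to Bmp4 and is known as an inducer of bone formation, did not fall with it. Its values were 10.7, 11.6 and 12.2 CPM in Vehicle 1, 2 and 3 and 15.0, 18.4 and 10.6 CPM in EPO 1, 2 and 3. EPO 1 and EPO 2 were above every Vehicle library and EPO 3 was below every one, so the groups overlapped (log2 fold change 0.35, SE 0.21, adjusted p = 0.281). Bmp7, a ligand best known from kidney development, was barely detected, with 5 to 19 counts per library in Vehicle and 6 to 21 in EPO (0.449 ± 0.338 and 0.414 ± 0.21 CPM, log2 fold change -0.09, SE 0.66, adjusted p = 0.94). A 2-fold change in either direction lies within 2 SE and was not detectable at this depth. Bmp2 and Bmp7 lie on chromosome 2, from 133552159 to 133562885 (plus strand, ENSMUSG00000027358) and from 172868012 to 172940321 (minus strand, ENSMUSG00000008999).

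Per library, the level per transcript length of Bmp2 relative to Bmp4 (ratio of RPKM) was 0.116, 0.123 and 0.0873 in Vehicle 1, 2 and 3 and 0.291, 0.581 and 0.339 in EPO 1, 2 and 3. The ratio of Bmp6 to Bmp2 went the other way, from 7.05, 6.75 and 8.78 to 2.60, 0.778 and 1.11. In every Vehicle library Bmp6 was thus the more abundant of that pair per length, and in EPO 2 it was the less abundant. These ratios are descriptions and were not tested.

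Inhba encodes the beta A subunit that forms activin A. It stood at 30.2, 26.0 and 34.1 CPM in Vehicle 1, 2 and 3 and at 12.1, 34.6 and 28.0 CPM in EPO 1, 2 and 3. Only EPO 1 was low, and the other EPO libraries lay within or just above the Vehicle range (log2 fold change -0.28, SE 0.35, adjusted p = 0.604; without EPO 1 it was 0.05, adjusted p = 0.848). EPO 1 was also the library with most macrophage markers and the lowest share of smooth muscle markers, 0.666%; the part of either in its low Inhba was not tested. Inhba lies on chromosome 13 from 16011851 to 16031621, plus strand (ENSMUSG00000041324).

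Among the receptors, Bmpr1a, the type I receptor for BMP2 and BMP4, fell in all 3 EPO libraries. It had 199, 194 and 189 CPM in Vehicle 1, 2 and 3 and 87.5, 114 and 112 CPM in EPO 1, 2 and 3. The Vehicle values lay close together, and every EPO value was well below them. The mean went from 194 ± 4.7 to 105 ± 15 CPM, a 1.85-fold fall (log2 fold change -0.89, SE 0.14, adjusted p = 0.00592), and without any single library the log2 fold change stayed between -0.95 and -0.78 and the call held. Bmpr1a lies on chromosome 14 from 34410734 to 34503341, minus strand (ENSMUSG00000021796), where Gm17110 on the other strand covers 4.57% of its exon bases.

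Bmpr2, the BMP type II receptor, whose human counterpart is mutated in heritable pulmonary arterial hypertension, had 125, 127 and 125 CPM in Vehicle 1, 2 and 3 and 106, 109 and 98.4 CPM in EPO 1, 2 and 3. The groups did not overlap, but the difference was small (126 ± 0.94 and 105 ± 5.45 CPM, 1.20-fold) and did not pass the test (log2 fold change -0.26, SE 0.11, adjusted p = 0.118). Acvrl1, the endothelial type I receptor ALK1, had 109, 104 and 127 CPM in Vehicle 1, 2 and 3 and 124, 104 and 102 CPM in EPO 1, 2 and 3. These ranges overlap (log2 fold change -0.04, SE 0.14, adjusted p = 0.849). Bmpr2 lies on chromosome 1 from 59763400 to 59879014 (plus strand, ENSMUSG00000067336) and Acvrl1 on chromosome 15 from 101128522 to 101145336 (plus strand, ENSMUSG00000000530; 2.98% of its exon bases shared with Gm16031 on the other strand).

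Smad6 encodes the inhibitory SMAD that BMP signalling itself induces. Its start site carries the palindrome printed above, which is not one of the GC-type motifs, and the part of that match in the values below was not tested. The gene had 69.8, 45.0 and 65.9 CPM in Vehicle 1, 2 and 3 and 42.7, 19.4 and 24.5 CPM in EPO 1, 2 and 3. The groups did not overlap, but EPO 1 came within a few CPM of Vehicle 2. The mean went from 60.3 ± 13.3 to 28.9 ± 12.3 CPM, a 2.08-fold fall that passed narrowly (log2 fold change -1.06, SE 0.31, adjusted p = 0.044). The call was lost without Vehicle 1, Vehicle 2, Vehicle 3, EPO 2 or EPO 3 (adjusted p = 0.126, 0.0528, 0.107, 0.102 and 0.113), with log2 fold changes between -1.25 and -0.84. Without EPO 1 it held at -1.46. Smad6 lies on chromosome 9 from 63953076 to 64022059, minus strand (ENSMUSG00000036867).

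Grem1 encodes gremlin 1, a secreted protein that binds BMP2, BMP4 and BMP7. It had 3.04, 5.25 and 3.73 CPM in Vehicle 1, 2 and 3 and 20.2, 22.7 and 4.75 CPM in EPO 1, 2 and 3. EPO 1 and EPO 2 were several times above Vehicle, whereas EPO 3 lay inside the Vehicle range. The mean went from 4.01 ± 1.13 to 15.9 ± 9.71 CPM, a 3.95-fold rise that passed the test (log2 fold change 1.98, SE 0.55, adjusted p = 0.0375) although the groups overlapped. It did not pass in limma-voom (adjusted p = 0.135) or with the replicate number as a block (adjusted p = 0.0628), nor without Vehicle 1, Vehicle 2, Vehicle 3, EPO 1 or EPO 2 (adjusted p = 0.133, 0.0793, 0.0993, 0.0834 and 0.0989). With only EPO 3 kept in the EPO group the log2 fold change was 0.25 (adjusted p = 0.705). EPO 1 and EPO 2 are also the libraries with most skeletal muscle RNA, 0.0919% and 0.261% against 0.0263% in EPO 3, and the part of that tissue in the Grem1 values was not tested. Grem1 lies on chromosome 2 from 113746164 to 113758646, minus strand (ENSMUSG00000074934).

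**Figure D2:**
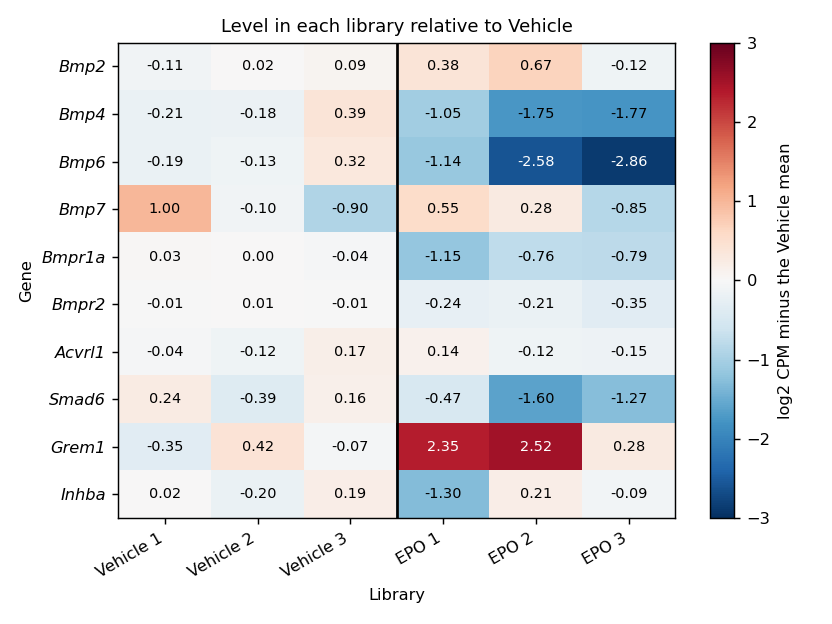
Each cell gives log2 CPM of a gene (rows) in a library (columns) minus the mean of the 3 Vehicle libraries for that gene, with colour from blue (lower) to red (higher). Bmp4, Bmp6 and Smad6 are lowest in EPO 2 and EPO 3 and nearer to Vehicle in EPO 1, Bmpr1a and Inhba are lowest in EPO 1, and Grem1 is raised by 2.35 and 2.52 in EPO 1 and EPO 2 and by 0.28 in EPO 3.

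The 10 genes were ordered by level per transcript length (RPKM, CPM per kilobase of exon). In Vehicle the order was Bmp4 (30.7 ± 7.62 RPKM), Bmpr1a (30.5 ± 0.74), Acvrl1 (26.6 ± 2.8), Bmp6 (24.5 ± 5), Smad6 (18.8 ± 4.16), Bmpr2 (6.98 ± 0.0523), Inhba (4.71 ± 0.633), Bmp2 (3.24 ± 0.221), Grem1 (0.966 ± 0.272) and Bmp7 (0.112 ± 0.084). The library values of Bmp4 and Bmpr1a overlapped, as did those of Acvrl1 and Bmp6 and those of Bmp6 and Smad6; the other neighbours did not overlap. In EPO, Acvrl1 came first (25.8 ± 2.9 RPKM) without overlap with Bmpr1a (16.5 ± 2.36). The next were Bmp4 (10.7 ± 3.28), Smad6 (9.01 ± 3.82), Bmp6 (6.11 ± 4.25) and Bmpr2 (5.81 ± 0.303), each overlapping its neighbour. Bmp2, Inhba and Grem1 followed at 4.12 ± 1.09, 3.90 ± 1.81 and 3.83 ± 2.34 RPKM and overlapped each other. By library, Grem1 was at 4.87, 5.47 and 1.15 RPKM in EPO 1, 2 and 3 and Bmp2 at 4.22, 5.17 and 2.98 RPKM. Grem1 RNA was thus above Bmp2 RNA per length in EPO 1 and EPO 2 and below it in EPO 3, which was not tested.

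The other genes of the pathway were taken from 6 lists of 80 genes, of which 64 passed the filter and were tested. Of those 64, 14 (21.9%) were higher and 10 (15.6%) lower, against 12.9% and 10.1% of all tested genes, and their median log2 fold change was 0.03. The total of 24 called was 14 without Vehicle 1. Over all tested genes that fit called 936 higher and 699 lower, against 2133 and 1671 in the main comparison. The 16 genes filtered out include Bmp10 and Cer1, listed at 0 counts in every library.

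**Figure D3:**
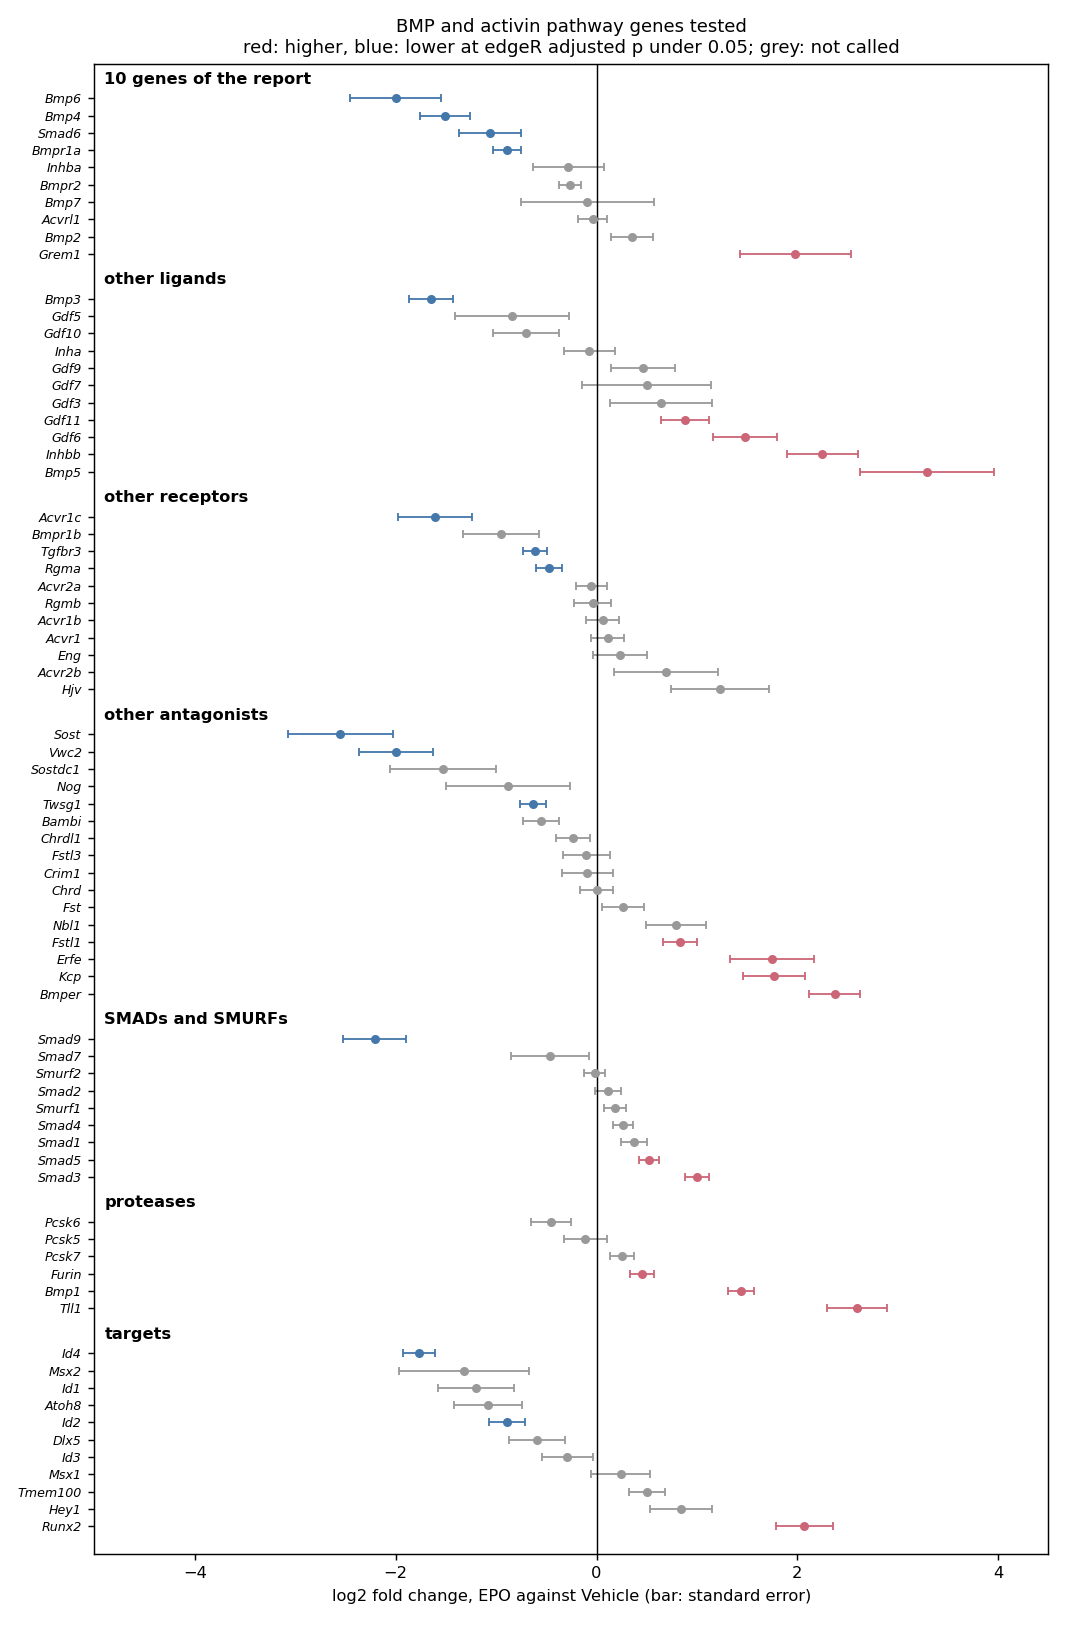
Log2 fold change of EPO against Vehicle (points) with its standard error (bars) for the 10 genes and the 64 tested genes of the 6 lists, grouped by role; red genes were higher and blue genes lower at an edgeR adjusted p under 0.05, and grey genes were not called. The rises and falls are mixed within most lists. The 6 tested proteases hold 3 higher and 0 lower genes and the 11 tested receptors 0 higher and 3 lower. Of all tested genes 12.9% were higher and 10.1% lower.

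Of 21 other ligands 11 were tested, 4 of them higher and 1 lower. Inhbb, the beta B subunit of activin B, rose 4.75-fold, from 13.0, 9.18 and 10.6 CPM in Vehicle 1, 2 and 3 to 64.4, 64.9 and 26.3 CPM in EPO 1, 2 and 3 (log2 fold change 2.25, SE 0.35, adjusted p = 0.00556). EPO 3 was the lowest of the EPO libraries but still above every Vehicle library, and with only EPO 3 kept the log2 fold change was 1.27. The RPKM ratio of Inhba to Inhbb was 1.54, 1.88 and 2.15 in Vehicle 1, 2 and 3 and 0.125, 0.355 and 0.711 in EPO 1, 2 and 3. In Vehicle the beta A subunit was thus the more abundant per length in every library, and in every EPO library the beta B subunit was. The ratio was not tested.

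Gdf6, a ligand of joint and skull development, rose 2.78-fold (4.31 to 12.0 CPM on average, adjusted p = 0.0165), and Gdf11, a relative of myostatin, 1.85-fold (adjusted p = 0.0381). Bmp5 had 7 counts over the Vehicle group and 92 over the EPO group (adjusted p = 0.0139), and 46.7% of its exon bases are shared with Gm26903 on the opposite strand, so its counts are uncertain. Bmp3, which is known to oppose bone-forming BMPs, fell 3.13-fold, from 27.2 ± 4.51 to 8.67 ± 2.1 CPM (log2 fold change -1.65, SE 0.22, adjusted p = 0.00332). The number of called ligands was 3 without Vehicle 1, Vehicle 2 or Vehicle 3. Over all tested genes those fits called 936, 1075 and 1379 higher (2133 in the main comparison) and 699, 954 and 1245 lower (1671). Gdf11 lost its call without each library except EPO 1, Gdf6 without Vehicle 2 or Vehicle 3, and Bmp5 without Vehicle 1. In limma-voom the Gdf11 call was lost too (adjusted p = 0.0543).

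Of 12 other receptors and co-receptors 11 were tested, and 3 were lower and 0 higher. Acvr1c, the type I receptor ALK7, which is known from adipocytes, fell 3.05-fold (18.2, 23.6 and 8.04 CPM in Vehicle 1, 2 and 3 and 5.77, 5.94 and 4.63 CPM in EPO 1, 2 and 3; adjusted p = 0.021). Its Vehicle values had the order of the white adipocyte share, which was 0.402%, 0.680% and 0.287%, and the part of fat tissue in its fall was not tested. The Acvr1c call was lost without Vehicle 1, Vehicle 2, EPO 2 or EPO 3 (adjusted p = 0.0705, 0.0641, 0.0533 and 0.0594) and in limma-voom (adjusted p = 0.0512). Tgfbr3, the co-receptor betaglycan, fell 1.52-fold and Rgma, a membrane co-receptor for BMPs, 1.39-fold (adjusted p = 0.0135 and 0.0371). The Tgfbr3 call was lost without Vehicle 1 (adjusted p = 0.0552). The Rgma call was lost without Vehicle 1, Vehicle 2, Vehicle 3, EPO 2 or EPO 3 (adjusted p from 0.0566 to 0.117), with no filter (0.0585) and with the replicate number as a block (0.0532). Hjv (hemojuvelin, in the annotation Hfe2), a BMP co-receptor of liver and skeletal muscle, was at 10.8, 23.3 and 5.05 CPM in EPO 1, 2 and 3 against 5.05 to 5.87 CPM in Vehicle (adjusted p = 0.112), high in the libraries with most skeletal muscle RNA, whose part in these values was not tested. Hjv passed without EPO 3 (adjusted p = 0.02), with no filter (0.0462) and in DESeq2 (0.0382). The number of called receptors was 0 without Vehicle 1 and 1 without Vehicle 2 or without EPO 2, and 5 in DESeq2. Among all tested genes these fits called 936, 1075, 1634 and 2650 higher (2133 in the main comparison) and 699, 954, 941 and 2312 lower (1671). The activin receptor genes Acvr1b, Acvr2a and Acvr2b, named after their values were seen, had log2 fold changes of 0.06 (SE 0.16), -0.05 (SE 0.15) and 0.69 (SE 0.52), none past the threshold. Bmpr1b, named in the same way, did not pass either (log2 fold change -0.95, SE 0.38, adjusted p = 0.114), though every EPO library lay below every Vehicle library.

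Of 18 other genes listed as antagonists 16 were tested, with 4 higher and 3 lower. The list is broad, and not every higher gene in it, such as Kcp, opposes BMP signalling. Bmper, a secreted modulator that binds BMP2, BMP4 and BMP6, rose 5.18-fold, from 8.47, 15.3 and 15.5 CPM in Vehicle 1, 2 and 3 to 71.7, 57.1 and 74.6 CPM in EPO 1, 2 and 3 (log2 fold change 2.37, SE 0.25, adjusted p = 0.00227). All 3 EPO libraries were high, unlike those of Grem1, and the call held without any single library. Kcp, a chordin-like protein that enhances BMP signalling, rose 3.42-fold (adjusted p = 0.0084), and Fstl1, a secreted follistatin-like glycoprotein, 1.78-fold (1080 ± 55.7 to 1930 ± 234 CPM, adjusted p = 0.0141). Leaving out any Vehicle library ended the Fstl1 call (adjusted p from 0.0559 to 0.0665). Erfe, or erythroferrone, the hormone by which EPO-stimulated erythroblasts lower hepcidin by binding BMPs, rose 3.36-fold at a low level, from 31 counts over the Vehicle group to 131 over the EPO group (adjusted p = 0.0248). It lost its call without Vehicle 1, Vehicle 2, Vehicle 3, EPO 2 or EPO 3, and 12.7% of its exon bases are shared with Ilkap on the opposite strand.

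The lower antagonists were Sost, Vwc2 and Twsg1. Sost, which encodes sclerostin, best known as a Wnt inhibitor of bone, had the highest level per length of them in Vehicle (346 ± 96 RPKM) and went from 836, 487 and 824 CPM in Vehicle 1, 2 and 3 to 41.3, 144 and 181 CPM in EPO 1, 2 and 3, a 5.86-fold fall (log2 fold change -2.55, SE 0.52, adjusted p = 0.0138). Without Vehicle 1 its adjusted p was 0.0504. Vwc2 (brorin) fell 4.01-fold (70.4 ± 18 to 17.5 ± 7.7 CPM, adjusted p = 0.00935). Twsg1, a chordin partner, fell 1.55-fold, from 318, 307 and 284 CPM to 174, 208 and 207 CPM (adjusted p = 0.0164), a call that was lost without Vehicle 1 or Vehicle 2. The number of called antagonists was 4 without Vehicle 1 or Vehicle 2. Those fits called 936 and 1075 of all tested genes higher (2133 in the main comparison) and 699 and 954 lower (1671). Follistatin (Fst), the main extracellular inhibitor of activin, named here after its values were seen, did not pass (18.1, 17.1 and 21.1 CPM in Vehicle and 16.0, 23.9 and 27.5 CPM in EPO; adjusted p = 0.417).

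The RPKM ratio of Grem1 to the sum of Bmp2 and Bmp4, the ligands it binds, was 0.0253, 0.0425 and 0.0209 in Vehicle 1, 2 and 3 and 0.260, 0.389 and 0.0971 in EPO 1, 2 and 3. In EPO 3 it was above Vehicle although Grem1 itself was not, since Bmp4 was low there. The RPKM ratio of Bmper to Bmp4 was 0.0674, 0.119 and 0.0812 in Vehicle 1, 2 and 3 and 1.02, 1.33 and 1.75 in EPO 1, 2 and 3. Bmper RNA was below Bmp4 RNA per length in each Vehicle library and above it in each EPO library. Neither ratio was tested.

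**Figure D4:**
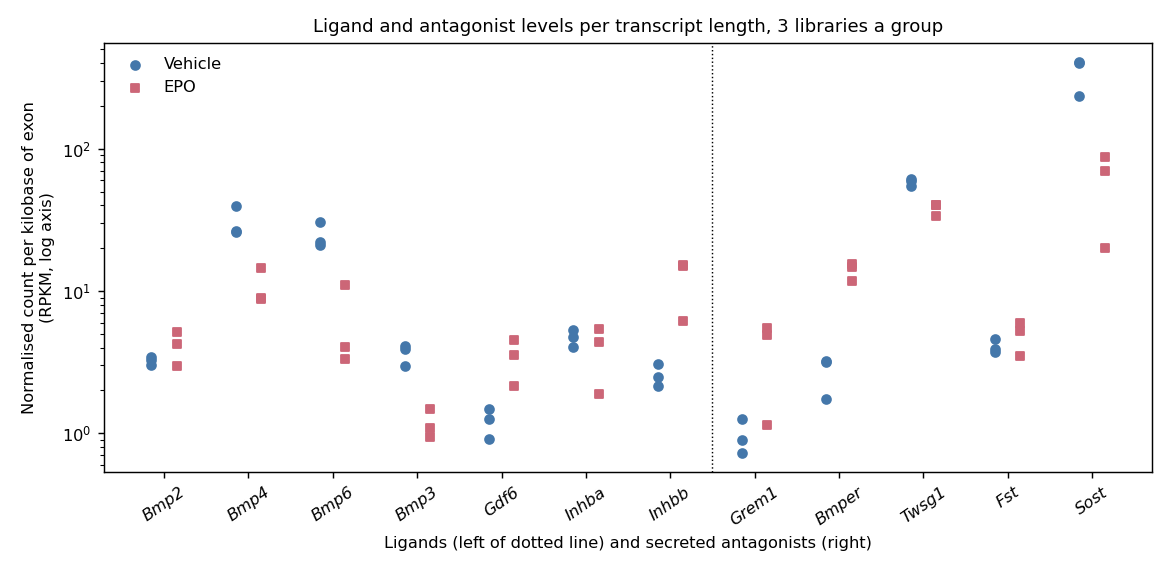
Level per transcript length (RPKM, log axis) of 7 ligand genes and 5 antagonist genes in each Vehicle library (circles) and EPO library (squares). Bmp4 and Bmp6 are the highest of these ligands in Vehicle, Inhbb and Bmper are higher in every EPO library, and Sost is the highest antagonist in Vehicle and lower in every EPO library.

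Of 9 SMAD and SMURF genes, all tested, 2 were higher and 1 lower. Smad3, which carries activin and TGF-beta signals, rose 2.0-fold (34.4, 31.2 and 29.6 CPM in Vehicle 1, 2 and 3 and 66.0, 67.8 and 56.5 CPM in EPO 1, 2 and 3; log2 fold change 1.0, SE 0.12, adjusted p = 0.00306). Of the BMP SMADs, Smad5 rose 1.44-fold (adjusted p = 0.0124), Smad1 had a log2 fold change of 0.37 (adjusted p = 0.0766, and 0.0322 without EPO 1) and Smad9 fell 4.63-fold, from 13.3, 11.8 and 15.9 CPM in Vehicle to 1.73, 3.33 and 3.82 CPM in EPO (adjusted p = 0.00402). The Smad5 call was lost without Vehicle 1 (adjusted p = 0.0756) or Vehicle 3 (adjusted p = 0.0532), and that of Smad9 held without any single library. Without EPO 1 the number of called genes in this list was 6. That fit called 2265 of all tested genes higher and 2016 lower, against 2133 and 1671 in the main comparison. The RPKM ratio of Smad6 to the sum of Smad1 and Smad5 was 1.75, 1.14 and 1.65 in Vehicle 1, 2 and 3 and 0.832, 0.359 and 0.429 in EPO 1, 2 and 3, which was not tested.

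Of 7 proteases that process the ligands or cleave chordin, 6 were tested, with 3 higher and 0 lower. Bmp1, which despite its name is a metalloprotease that cleaves procollagen and chordin, rose 2.71-fold, from 228, 212 and 212 CPM in Vehicle 1, 2 and 3 to 555, 573 and 638 CPM in EPO 1, 2 and 3 (log2 fold change 1.44, SE 0.13, adjusted p = 0.00175). Its relative Tll1 rose 6.01-fold at a low level (1.12 ± 0.352 to 6.7 ± 1.05 CPM, adjusted p = 0.0027). Furin, a convertase that cuts BMP precursors, was 1.36-fold higher (adjusted p = 0.038), a call that was lost without each library except EPO 1. That call was also lost with library size alone, with no filter and with the replicate number as a block. The fibroblast marker share, in which procollagen genes lead, was also higher in every EPO library, and its part in the rise of Bmp1 was not tested. Pcsk6, another convertase, had a log2 fold change of -0.45 (adjusted p = 0.138, and 0.0212 without Vehicle 3).

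Of 13 genes known as BMP targets 11 were tested, with 1 higher and 2 lower. The ID genes encode helix-loop-helix inhibitors that BMP signalling induces. Id4 fell 3.41-fold, from 41.3, 37.5 and 48.1 CPM in Vehicle 1, 2 and 3 to 11.9, 10.9 and 14.4 CPM in EPO 1, 2 and 3 (log2 fold change -1.77, SE 0.16, adjusted p = 0.00153), and Id2 fell 1.85-fold (adjusted p = 0.0129, and 0.0503 without both EPO 1 and EPO 2). Id1 was at 73.7, 64.2 and 105 CPM in Vehicle and 58.0, 22.6 and 25.3 CPM in EPO, with no overlap, and just missed the threshold (log2 fold change -1.20, SE 0.38, adjusted p = 0.0566). It passed without EPO 1 (adjusted p = 0.00548), with library size alone (0.0369), with no filter (0.0133) and in limma-voom and DESeq2 (0.0431 and 0.00754). Atoh8, a transcription factor induced through ALK1, likewise missed it (log2 fold change -1.08, adjusted p = 0.0558) and passed without EPO 1 (adjusted p = 0.00779), with library size alone (0.035), with no filter (0.0151), with the replicate number as a block (0.0203) and in limma-voom and DESeq2 (0.0483 and 0.00946). The other targets that did not pass, named after their values were seen, leaned either way. Log2 fold changes were 0.50 for Tmem100 (every EPO library above every Vehicle library, adjusted p = 0.0881), 0.84 for Hey1 (adjusted p = 0.0896) and 0.24 for Msx1 (adjusted p = 0.59). They were -0.59 for Dlx5 (adjusted p = 0.163), -1.32 for Msx2 (adjusted p = 0.183) and -0.29 for Id3 (adjusted p = 0.435). The higher gene was Runx2, a master regulator of osteoblasts, which rose 4.20-fold (3.54 ± 1.27 to 15 ± 1.05 CPM, adjusted p = 0.00379). The chondrocyte marker share was also higher in every EPO library, and its part in the Runx2 values was not tested. Of the 6 tested markers in that share 4 were higher, Hapln1 was lower and Col2a1 did not pass (log2 fold change 0.03, adjusted p = 0.975). The number of called targets was 5 without EPO 1, with library size alone or in limma-voom, and 6 with no filter or in DESeq2. Among all tested genes these fits called 2265, 2006, 1893, 2358 and 2650 higher and 2016, 1693, 1588, 1786 and 2312 lower. The main comparison called 2133 and 1671.

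For each called gene of the 10, likeness to the other tested pathway genes was measured as the root mean square difference over the 6 libraries between log2 CPM values centred on each gene's Vehicle mean, with 73 genes compared. Smad6 was most like Atoh8 (0.06 on the log2 scale) and then Id1 (0.25), and Bmp4 most like Id1 (0.26) and Id4 (0.35). Bmpr1a was most like Twsg1 (0.20) and Tgfbr3 (0.28). Bmp6 and Grem1 had no close match: their nearest were Vwc2 (0.54) and Bmp4 (0.56) for Bmp6, and Inhbb (0.56) and Gdf6 (0.59) for Grem1. The libraries share the difference between the groups, so likeness over 6 libraries is a description only.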

How the data were processed

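The deposited table holds raw read counts per Ensembl gene for 6 libraries, with no normalization by the authors; whole values and unequal totals were checked. Per the submitters' processing notes, base calling used CASAVA 1.8 and alignment TopHat2 2.0.6 on mm10. How reads were assigned to genes, with or without strand and on which gene models, is not given in the sources used here. Columns abbreviated Con were read as Vehicle. Symbols, coordinates and exon lengths came from GENCODE M21 (GRCm38, the assembly of mm10), matched for 47224 IDs and not for 419.

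EPO was compared with Vehicle in R 4.3.3 with edgeR 4.0.16 (filterByExpr, TMM, glmQLFit and glmQLFTest, group as the only term, two-sided, Benjamini-Hochberg over 16522 genes). CPM is scaled by TMM, SE is the log2 fold change over the square root of F, and log2 CPM used a prior count of 2. Alternatives were other scalings, filters, tools (limma 3.58.1, DESeq2 1.42.0) and thresholds, the replicate number as a block, and libraries left out. On simulated counts (16122 genes) 9 of 130 calls were false, and of 100 genes simulated at each size the test found 42 at 2-fold and 79 at 4-fold. A far smaller share of genes changed in the simulation than was called in the data (23.0%), so its rates may not hold here. Intervals and limits cover counting error only.

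The 10 genes and the lists were chosen with earlier results of these data known. A listed gene is not reported here. Beside the 10, the text names from each list the called genes and up to 4 of smallest p, the genes of most like pattern, and marker genes of smallest p. Epo, Epor and Apoe check the labels. Acvr1b, Acvr2a, Acvr2b, Bmpr1b, Fst, Id3, Tmem100, Hey1, Msx1, Dlx5, Msx2, Pecam1, Pdgfra, Dpt, Dcn, Pi16, Sox9, Hapln1, Col2a1, Cidec, Matn1, Myog, Bmp10 and Cer1 were named after their values were seen.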

Additional observations from a re-analysis of the deposited data

How the results depend on the processing

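The number of all genes called higher and lower was 2133 and 1671, of the 10 genes 1 and 4. Leaving out 1 library each gave 936 to 2265 higher and 699 to 2016 lower genes among all tested, and 0 to 1 and 2 to 4 of the 10; without both EPO 1 and EPO 2 the numbers were 1085, 463, 0 and 3, and with a fold of at least 2 they were 1329, 919, 1 and 3. In limma-voom 0 of the 10 were higher and 4 lower. With the replicate number as a block the numbers were 1630 and 1254 among all tested genes, and 0 and 4 of the 10. Same-numbered libraries deviated from their group means with correlations of -0.0088, -0.0098 and 0.127, so no pairing by number was shown; EPO 1 and EPO 2 were not closest to their own numbers. Among the 10, direction changed for genes not called: Bmp2 without EPO 1 and EPO 2 (-0.12), Bmp7 without Vehicle 1 (0.64), without EPO 3 (0.27) and in limma-voom (0.03), Acvrl1 without Vehicle 3 (0.04) or EPO 3 (0.01), and Inhba without EPO 1 (0.05). So did Hjv without EPO 1 and EPO 2 (-0.13) and Apoe without EPO 1 (-0.25) and without EPO 1 and EPO 2 (-0.10). Over all fits that left out libraries the log2 fold change ran from -0.12 to 0.54 for Bmp2, -1.27 to 0.64 for Bmp7, -0.15 to 0.04 for Acvrl1, -0.58 to 0.05 for Inhba, -0.13 to 1.62 for Hjv and -0.25 to 0.82 for Apoe. Apart from the block and the fits that left out libraries, limma-voom and the fold of at least 2 changed calls among the 10: Grem1 in limma-voom and Bmpr1a at the fold of at least 2. The cause was not tested. Of 728 results of named genes under alternatives, 619 kept direction and call. Where 1 library remained in a group it was assumed to vary like the other group. Depth limits Bmp7, Bmp5 and Erfe, which rest on few counts.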
